A study of Homo sapiens with 14 samples.

Results

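RelA and p50 form the classical pair of the canonical NF-κB pathway, and their binding was compared here over every region of a ChIP-seq peak table, 14865 regions of 14865. ChIP-seq is the sequencing of DNA that an antibody has pulled down with the protein bound to it. The cells were L1236, an established cell line of Hodgkin lymphoma, and the labels give no treatment for them. RelA was precipitated with the rabbit antibody NFkB p65 (C-20) and p50 with the goat antibody NFkB p50 (C-19), each in 2 biological replicates, so that 4 of the 14 samples belong to the pair. The other samples were p52 and RelB ChIP in 2 replicates each and 6 input DNA libraries. For each region the log2 RelA against p50 read ratio was calculated after adding 1 read to each count and dividing by the sum of each subunit over all regions. A ratio of 0 thus means that the region held the reads of both in the proportion of their totals, and not that it held equal numbers of them.

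RelA carries a transactivation domain, whereas p50, the processed product of the p105 precursor encoded by NFKB1, has none. In the canonical pathway the IKK complex marks inhibitory IκB proteins for degradation, and RelA/p50 heterodimers then enter the nucleus and bind κB sites. Homodimers of p50 bind such sites as well and are known as repressors, or as activators together with coactivators of the IκB family. Hodgkin lymphoma cells are known for constitutive NF-κB activity.

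A κB site has a G-rich and a C-rich end, and the promoters of 6 genes whose regions are described further on are printed here to show such letters close to the start of genes at which both subunits were called. The sequences are RefSeq promoters of GRCh38.p14, from 250 bases before to 50 after the gene's start, on the strand of the gene, with matches to GGGNNNTTCC or GGGNNNTCCC on either strand in capitals. The windows are chr14:35404700-35404999 on the minus strand for NFKBIA and, on the plus strand, chr6:137867009-137867308 for TNFAIP3, chr4:102501109-102501408 for NFKB1, chr2:60881324-60881623 for REL, chr11:102317234-102317533 for BIRC3 and chr2:201118466-201118765 for CFLAR.
NFKBIA: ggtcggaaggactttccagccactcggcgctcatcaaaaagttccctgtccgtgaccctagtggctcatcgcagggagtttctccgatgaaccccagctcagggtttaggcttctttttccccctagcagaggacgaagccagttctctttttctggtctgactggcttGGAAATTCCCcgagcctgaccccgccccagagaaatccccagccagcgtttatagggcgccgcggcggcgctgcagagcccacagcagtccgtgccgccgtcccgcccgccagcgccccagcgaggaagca
TNFAIP3: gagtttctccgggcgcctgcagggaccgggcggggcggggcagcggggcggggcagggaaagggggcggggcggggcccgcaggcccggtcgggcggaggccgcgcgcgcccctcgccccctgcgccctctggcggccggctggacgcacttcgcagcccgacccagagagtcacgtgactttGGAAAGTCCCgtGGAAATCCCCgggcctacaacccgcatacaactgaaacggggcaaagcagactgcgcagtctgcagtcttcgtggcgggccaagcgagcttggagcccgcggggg
NFKB1: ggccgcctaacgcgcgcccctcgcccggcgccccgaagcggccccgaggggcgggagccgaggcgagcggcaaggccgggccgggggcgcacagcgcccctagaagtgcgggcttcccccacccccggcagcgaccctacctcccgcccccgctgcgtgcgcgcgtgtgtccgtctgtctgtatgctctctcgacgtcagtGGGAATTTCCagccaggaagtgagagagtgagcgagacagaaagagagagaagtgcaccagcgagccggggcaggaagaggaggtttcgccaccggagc
REL: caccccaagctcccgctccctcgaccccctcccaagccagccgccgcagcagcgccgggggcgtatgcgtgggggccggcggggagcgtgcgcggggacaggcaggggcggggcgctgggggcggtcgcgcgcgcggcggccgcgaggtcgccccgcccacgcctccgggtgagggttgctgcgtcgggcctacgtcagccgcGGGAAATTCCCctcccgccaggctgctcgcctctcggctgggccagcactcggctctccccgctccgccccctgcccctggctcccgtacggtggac
BIRC3: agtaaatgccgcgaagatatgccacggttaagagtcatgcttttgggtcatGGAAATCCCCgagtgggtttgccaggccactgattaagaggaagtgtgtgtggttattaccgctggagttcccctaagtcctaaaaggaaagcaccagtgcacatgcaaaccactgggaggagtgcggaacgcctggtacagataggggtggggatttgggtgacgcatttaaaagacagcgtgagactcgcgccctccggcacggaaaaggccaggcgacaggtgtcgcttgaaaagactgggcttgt
CFLAR: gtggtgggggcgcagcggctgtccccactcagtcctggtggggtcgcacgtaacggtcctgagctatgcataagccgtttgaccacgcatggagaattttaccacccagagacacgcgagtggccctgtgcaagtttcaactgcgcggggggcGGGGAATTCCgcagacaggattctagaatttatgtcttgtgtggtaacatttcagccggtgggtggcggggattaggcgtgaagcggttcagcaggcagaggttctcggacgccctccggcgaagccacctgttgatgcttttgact

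The match began 81 bases before the start of NFKBIA, 49 bases before that of NFKB1, 97 bases before that of CFLAR and 199 bases before that of BIRC3. TNFAIP3 had 2 matches, which began 67 and 55 bases before its start, and REL had 2 overlapping ones at 47 and 46 bases. No match was found in the windows of NFKB2, RELA, JUNB, BCL2L1, ICAM1, LTA and CSF2. A single window per gene was used, and its start need not be the one that lay in the region. A missing match therefore holds for that window and not for every promoter of the gene. For NFKB2, a primer of the study holds such a match upstream of the start it uses, and this sequence is not in the window. A match was found in 13.0% of all 35116 RefSeq windows of this length. Among the genes with a name and a window whose start lay in a region, it was found in 12 of 22 with RelA and p50 called (54.5%, exact 95% interval 32.2 to 75.6%) and in 72 of 237 with p50 called and RelA not (30.4%, 24.6 to 36.7%). The names come from the study's gene tables, and the intervals of both shares overlapped. Split at the median RelA against p50 ratio of these regions instead, 43 of 133 windows above it and 43 of 134 at or below it held a match.

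The totals of the pair were far apart. The regions held 315151 RelA reads and 1654137 p50 reads, that is 5.25 p50 reads for each RelA read. The authors called RelA in 492 regions (3.31%), p50 in 10975 (73.8%) and both in 395 (2.66%). The median region, 863 bp wide, had 14 RelA reads (quartiles 8 and 24) and 78 p50 reads (45 and 140). The counts are of merged replicates, 1 value per subunit, so that no replicate error exists for them and none of the differences below was tested. Intervals given for a region are exact 95% Clopper-Pearson intervals, which cover counting error only and no variation between replicates. The authors removed duplicate reads, but without molecular identifiers the reads need not all be independent molecules. In 14468 regions p50 had more reads than RelA, and in 372 regions RelA had more.

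The ratio of RelA to p50 spread widely over the regions. Its median was -0.07 (quartiles -0.64 and 0.52), with a lowest value of -4.27 and a highest of 5.92. It was at least 1, a fold of 2 in favour of RelA, in 1879 regions (12.6%), and at most -1 in 2125 regions (14.3%). With a pseudocount of 5 these counts were 2657 and 714, and with at least 50 reads 809 and 1874, so which end was larger depended on the processing. The SD was 1.01, compared with a median counting SD of 0.43 per region. In the 2427 regions with 200 to 500 reads of RelA and p50 together, the SD was 0.88 (0.68 without the surroundings of high local background, described below) and the median counting SD 0.27. The interval lay wholly above 0 in 1942 regions and wholly below 0 in 3117 regions.

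RelA reads followed p50 reads across the regions, and both rose with the width of the region. Spearman's rho was 0.67 over the 14865 regions, and it was 0.75 between RelA reads and width and 0.73 between p50 reads and width. Per kb of region, rho between RelA and p50 fell to 0.30. All regions come from the same libraries, so these coefficients are descriptions. The least-squares line of log2 RelA on log2 p50 reads had a slope of 0.61, that is 1.52 times as many RelA reads for a doubling of p50 reads. The part of width was not tested. With log2 width in the line the slope on p50 was 0.23 and that on width 0.91. R squared was 0.41 for the line on p50, 0.53 for width alone and 0.55 for both together. RelA reads also ranked like RelB reads (rho 0.75) and like p52 reads (0.60).

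The residuals of this line had an SD of 0.89 and quartiles of -0.50 and 0.52. Regions called for both subunits lay above it, with a median residual of 0.93 and 384 of 395 above 0. Where p50 was called and RelA was not, the median residual was -0.10. Regions of high local background, but not their surroundings, were set aside for the ranks of residuals. The largest positive residual among regions with at least 100 reads was in chr2:132744276-132748472, with 890 RelA and 560 p50 reads and calls for RelA and RelB. This region lay within 500 kb of high local background and had a RelA fold enrichment of 3.45. RelA reads enter both the calls and the residuals, so these values describe the calls.

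**Figure D1:**
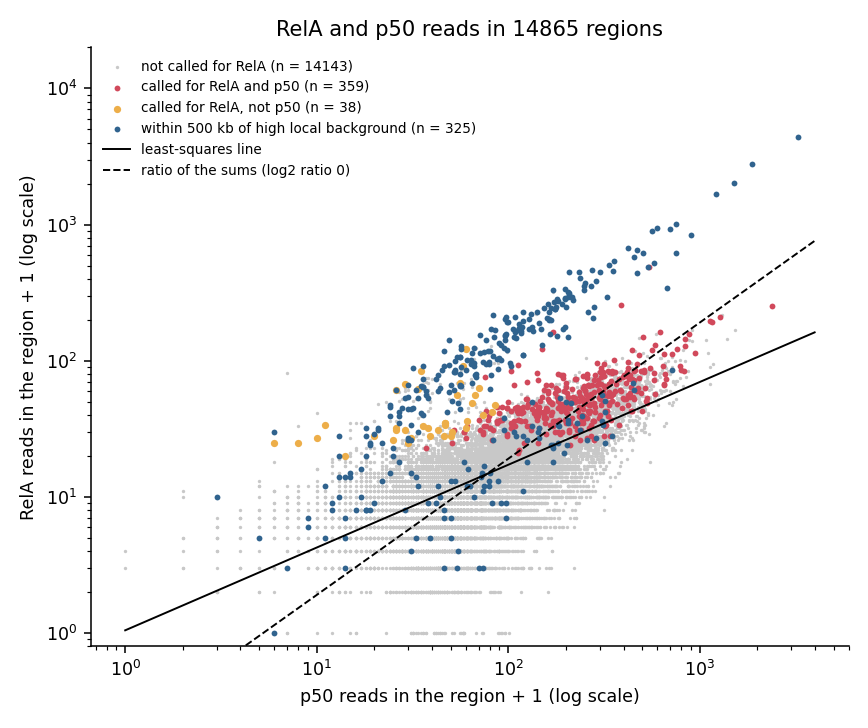
RelA reads against p50 reads in each of the 14865 regions, 1 added to each count and both axes logarithmic. Red points are the 359 regions called for both subunits outside high local background, orange points the 38 called for RelA and not p50, blue points the 325 within 500 kb of high local background, and the lines are the least-squares line and the ratio of the sums. The red points lie along and above the solid line, and many blue points form a band of their own above them.

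Divided into 10 groups of equal size by p50 reads, the regions showed a steep rise of p50 and a shallow rise of RelA. From the lowest to the highest group, the median p50 reads per kb went from 30.4 to 183.1, whereas the median RelA reads per kb went from 12.1 to 22.2. The median ratio accordingly went from 1.24 (1.20 to 1.28) in the lowest group through -0.05 in the fifth to -0.59 (-0.62 to -0.56) in the highest. These intervals are exact order-statistic intervals of the median over regions. p50 reads stand in the denominator of the ratio and also set the groups, so part of this fall comes from the construction. RelA was called in 11 of 1487 regions of the lowest group (0.74%, 0.37 to 1.32%) and in 217 of 1487 of the highest (14.6%, 12.8 to 16.5%). Even in the highest group most regions thus had no RelA call. Outside the surroundings of high local background, the straight line of RelA on p50 reads per kb had a slope of 0.05. Its intercept was 12.1 RelA reads per kb, compared with a median of 15.6 over all regions. How many of the RelA reads are background was not tested.

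**Figure D2:**
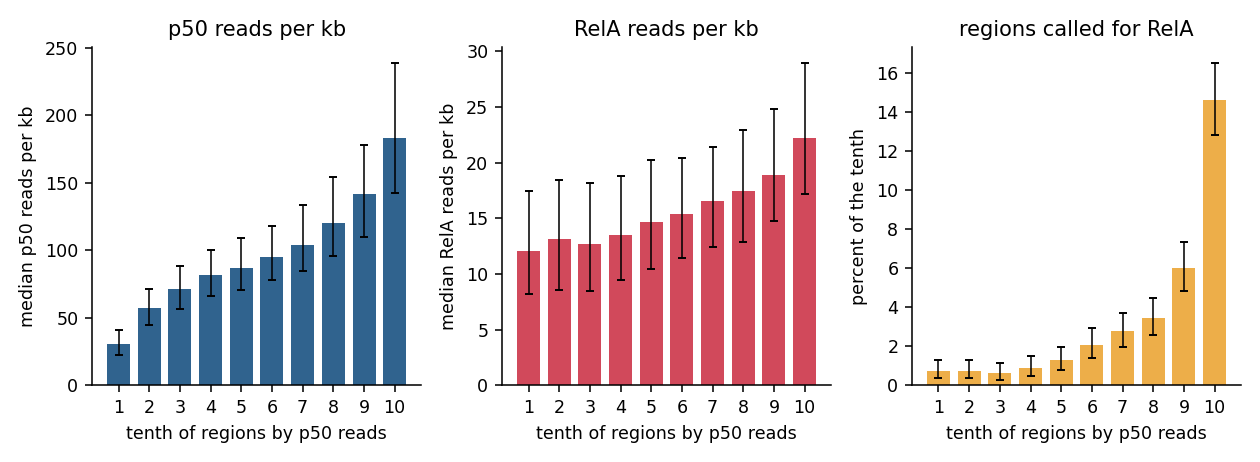
Median p50 reads per kb, median RelA reads per kb and percent of regions called for RelA in 10 groups of regions by p50 reads. The bars start at 0, the error bars are the quartiles in the first and second panel and the exact 95% interval in the third, and the vertical axes differ between panels. p50 went from 30.4 to 183.1 reads per kb, RelA from 12.1 to 22.2, and the calls from 0.74 to 14.6%.

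Some regions had very high counts for every subunit, and they stand apart from the rest. In 67 regions the pileup over the fold enrichment, a measure of the local background, was more than 5 times the median of RelA or p50. Pileup stands for the fragments stacked at the summit, and fold enrichment for their ratio over the local background in MACS. The strongest by RelA reads, chr6:58884033-58887415 in hg18, held 4410 RelA, 3246 p50, 4821 p52 and 5543 RelB reads, with a fold enrichment of 4.94 for RelA and 4.05 for p50. The ratio in these 67 regions ranged upward from 1.40, with a median of 2.85. The 325 regions within 500 kb of high local background of any subunit had a median ratio of 2.66, and they included 95 of the 492 regions called for RelA and 59 of the 97 called for RelA and not p50. They also included 184 of the 372 regions in which RelA had more reads than p50. The part of local background in these calls was not tested, and the results below are given with and without these surroundings.

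In the 395 regions called for both subunits, RelA took a somewhat larger share of the reads than over all regions. The median ratio was 0.29 (0.18 to 0.38), with quartiles of -0.21 and 0.88, and 251 of the 395 were above 0. Without the surroundings of high local background, 359 regions remained with a median of 0.23 (0.11 to 0.33). The interval was wholly above 0 in 124 of the 359, wholly below 0 in 63 and included 0 in 172. In none of these 359 regions did RelA have more reads than p50, and their RelA reads summed to 20.5% of their p50 reads. A call for RelA rests on the same reads, so this is a description of the called regions.

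Among these 359 regions, RelA reads rose less than p50 reads. In 3 groups of equal size by p50 reads, the median was 39.5 RelA reads at 36 to 175 p50 reads, 47 at 176 to 303 and 69 at 303 to 2386. The median ratio was 0.88, 0.14 and -0.23 in the same order.

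RelA also had the smaller fold enrichment over input. In the 395 regions its fold enrichment had a median of 6.76 (quartiles 5.47 and 8.00), compared with 30.9 (18.9 and 45.9) for p50. Antibody and libraries differed between the subunits, and the part of antibody and library quality in this difference was not tested. The log2 of RelA over p50 fold enrichment had a median of -2.05, and RelA was above p50 in 12 regions, 10 of them in the surroundings of high local background. The ratio of reads and the ratio of fold enrichments had a Spearman's rho of 0.90 (0.87 without the surroundings).

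The table also gives 2 signal values per subunit and region, beside the IDR, a measure of how well the peaks of replicates match. They are taken here as 1 value per replicate, but neither their scale nor the replicate each belongs to is stated. In the 359 regions called for both outside high local background, the median RelA values were 92.5 and 53.7 and the median p50 values 966.4 and 831.4. In 352 of these regions the higher RelA value was below the lower p50 value. The 2 values ranked the regions alike for p50 and unlike for RelA. Spearman's rho between them was 0.82 for p50 and -0.12 for RelA in these regions, and 0.84 and 0.05 in all 395. The log2 difference between the 2 values of RelA had an SD of 1.29, compared with 0.68 for p50.

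The summits of RelA and p50, that is the positions of the highest fragment pileup, lay close together in most regions called for both. The absolute distance had a median of 21 bp (quartiles 10 and 46), and 309 of 395 regions (78.2%, 73.8 to 82.2%) had summits within 50 bp. Both sides occurred, with the RelA summit at the larger coordinate in 188 regions, at the smaller in 203 and at the same base in 4. The median signed distance was -1 bp. Without the surroundings of high local background the median distance was 22 bp.

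In 44 regions the summits were more than 250 bp apart, and 34 of them were among the 99 widest regions, 1894 to 8787 bp. This was 34.3% of these, compared with 8.16% at 1417 to 1874 bp, 2.02% at 1080 to 1414 bp and 0 of the 99 narrowest. Of the 44, 36 lay outside the surroundings of high local background. In the 34 of them called for RelB, the RelB summit was nearer to that of RelA in 20 and nearer to that of p50 in 14, and it lay within 50 bp of RelA in 16 and of p50 in 5. All 36 were called for p52, as were 341 of the 359 regions called for both outside high local background. In the 36, the p52 summit was nearer to that of p50 in 28 and nearer to that of RelA in 8. Over all 334 regions called for RelA, p50 and RelB outside high local background, the median distance of the RelB summit was 21.5 bp to RelA and 12 bp to p50. For the p52 summit in the 341 regions it was 23 bp to RelA and 12 bp to p50.

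**Figure D3:**
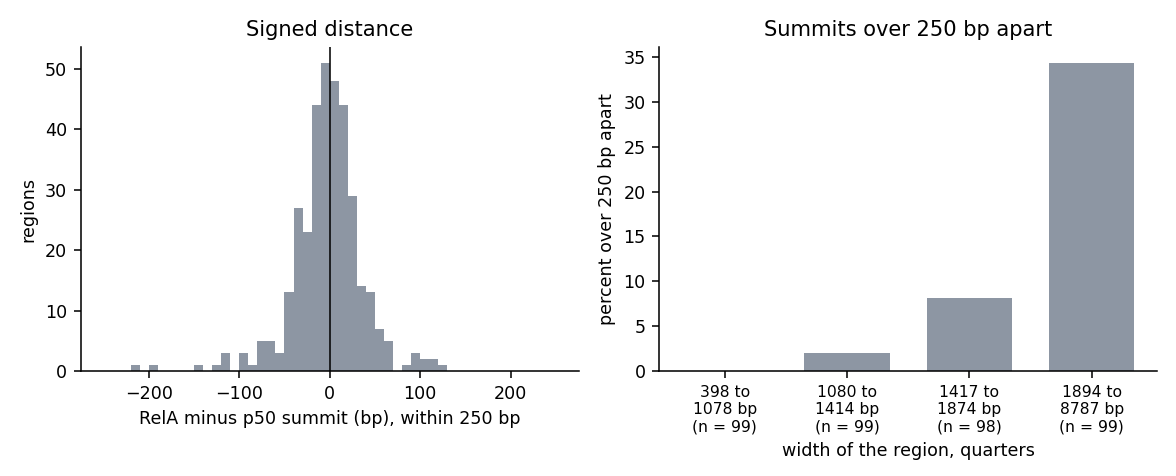
Left, histogram of the RelA minus p50 summit position in regions called for both, in bins of 10 bp and shown within 250 bp, and right, percent of regions with summits more than 250 bp apart in 4 groups by region width. The histogram centres on 0 with a median of -1 bp, and the share of distant summits is 34.3% in the widest group.

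The summits lay apart at several listed target genes. Each subunit has a single summit per region, that of its most significant call. A wide region can hold further peaks of the same subunit, which these distances do not show. At NFKBIA, which encodes the inhibitor IκBα and is the textbook feedback target of RelA, chr14:34941193-34944892 held 190 RelA and 1152 p50 reads. The p50 summit was 182 bp before the start and the RelA summit 802 bp after it, with p52 at 156 bp before and RelB at 768 bp after it. RelA and RelB thus had their listed summit in the gene, and p50 and p52 had theirs in the promoter. In the paper's browser view, both the promoter and the first intron of NFKBIA carry peaks of all these subunits.

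At JUNB, an AP-1 factor highly expressed in Hodgkin lymphoma, chr19:12762930-12766215 held 155 RelA and 875 p50 reads. The p50 summit was 1 bp after the start and the RelA summit 2156 bp after it, and p52 (2214 bp) and RelB (2270 bp) sided with RelA. This was one of 12 co-called regions with a RelA fold enrichment, 14.3, above that of p50, 9.35. Each value belongs to the subunit's own summit, so here they come from different positions.

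At BCL2L1, which encodes the survival factor BCL-XL, the p50 summit was 721 bp before the start and the RelA summit 303 bp after it, in a region with 91 RelA and 639 p50 reads. At CFLAR, the gene of the caspase-8 inhibitor c-FLIP, the distance was 1824 bp and RelB lay 22 bp from RelA. In a region 3552 bp from TNIP1, which encodes a partner of A20, it was 1595 bp and RelB had its summit on the same base as RelA. The largest distance was 4578 bp in chr19:1198686-1205335, with 130 RelA and 580 p50 reads, where p52 lay 14 bp and RelB 369 bp from the p50 summit. In chr19:55089820-55093263, with summits 2423 bp apart, RelB lay 14 bp and p52 4 bp from p50. RelB was thus nearer to RelA at NFKBIA, JUNB, CFLAR and TNIP1 and nearer to p50 in these 2 regions. p52 was nearer to p50 at NFKBIA, BCL2L1 and these 2 regions, and nearer to RelA at JUNB and at TNIP1 (5 bp). At CFLAR it lay between the summits, 890 bp from p50 and 934 bp from RelA.

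The genes of the NF-κB system were examined next, by the region with the most RelA reads at each gene. From 13 lists of 125 genes, known NF-κB targets, B cell factors and housekeeping genes, 62 could be matched by a name in the study's tables or primer list. A region counted for a gene if the authors gave that gene as its closest gene or closest start. It also had to lie within 10 kb of the start or over the gene, and 58 of the 62 genes had such a region. JUN, FOS, JAK1 and TNF had none by this rule, which leaves out regions near or over a gene that were given to a neighbouring gene. The region was called for RelA at 21 of the 58 genes (36.2%), each also called for p50, compared with RelA calls in 4.23% of the regions chosen in the same way for all 6243 identifiers. The median ratio over the 58 was -0.19, compared with -0.09 over the 6243. The interval was wholly above 0 at 6 genes, wholly below 0 at 18 and included 0 at 34. Across the 359 regions called for both outside high local background, the ratio fell with p50 reads (Spearman's rho -0.75). p50 reads stand in its denominator. The ratios of genes below are not adjusted for p50 reads, so differences between genes include this fall.

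The genes of the subunits themselves all carried both proteins. The 5 regions, each on the start site, were called for all 4 subunits, with a median ratio of 0.05. At NFKB1, which encodes p105 and p50, chr4:103641169-103642814 held 66 RelA and 303 p50 reads, a ratio of 0.21 (-0.21 to 0.58). The 2 RelA signal values there were 303.6 and 58.3 and those of p50 786.7 and 1158. At RELA the ratio was 0.41 (-0.11 to 0.85), with 47 RelA and 189 p50 reads, and at RELB it was 0.05 with 45 and 232. REL and NFKB2, which had the most p50 reads of the 5, were on the p50 side. At REL, the gene of c-Rel, 83 RelA and 822 p50 reads gave -0.90 (-1.26 to -0.59), and at NFKB2, the gene of p100 and p52, 112 and 947 reads gave -0.68 (-0.98 to -0.40). The intervals of REL and NFKB2 did not overlap that of NFKB1, whereas those of NFKB1, RELA and RELB did overlap one another. At REL the RelA summit was 52 bp and the p50 summit 95 bp before the start.

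Of the IκB family, NFKBIA had a ratio of -0.20 (-0.44 to 0.01) with fold enrichments of 19.9 for RelA and 88.7 for p50. At NFKBID, an atypical nuclear IκB, 42 RelA and 318 p50 reads gave -0.50 (-1.03 to -0.06). BCL3, the coactivator of p50 and p52 homodimers, had 69 RelA and 724 p50 reads in a region 9607 bp before its start (p50 summit), with no RelA call and a ratio of -0.98 (-1.38 to -0.64). All 3 ratios were below 0, and at NFKBIA the interval included 0.

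The feedback regulators differed among themselves. BIRC3, which encodes the ubiquitin ligase cIAP2, had 78 RelA and 256 p50 reads and a ratio of 0.69 (0.29 to 1.05), and its summits were 44 bp apart. TNFAIP3, the gene of the deubiquitinase A20, had 97 and 420 reads and a ratio of 0.29 (-0.06 to 0.60). TNIP1 was on the other side, with 73 and 663 reads and -0.77 (-1.16 to -0.44). TRAF1, an adaptor of TNF receptors, was between them at 0.10, and BIRC2, the neighbour of BIRC3 and gene of cIAP1, had no RelA call in its region and a ratio of -0.34 (-0.89 to 0.12). The interval of TNIP1 was below those of BIRC3 and TNFAIP3.

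Of the apoptosis regulators, CFLAR had 88 RelA and 305 p50 reads and a ratio of 0.61 (0.24 to 0.95), and BCL2L1 had -0.41 (-0.75 to -0.10). BBC3, the gene of the proapoptotic PUMA, reached 0.46 (0.06 to 0.82) with 75 and 289 reads but without a RelA call. BCL2 and BCL2A1, other survival genes, had no RelA call either, with ratios of 0.10 and -0.27.

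Of the interferon regulatory factors, IRF2 had the highest ratio, 1.13 (0.61 to 1.59), with 51 RelA and 124 p50 reads in a region 7540 bp from a start site. The fold enrichment there was 8.82 for RelA and 40.1 for p50. IRF1 and IRF5, of the same family, had -0.16 and -0.13 with intervals that included 0, and all 3 of these regions were called for both subunits. PRDM1, the gene of the plasma cell factor BLIMP1, had no RelA call, and its 9 RelA and 45 p50 reads gave 0.19 (-1.15 to 1.12).

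None of the 7 regions at B cell identity factors was called for RelA, and all were called for p50. By the same choice of region, RelA was called at 4.23% and p50 at 84.3% of all identifiers, so that these counts are near the background. Their median ratio was -0.31. At PAX5, the commitment factor of B cells, 55 RelA and 392 p50 reads gave -0.42 (-0.88 to -0.03). At FOXP1 45 and 350 reads gave -0.54 (-1.05 to -0.12), and at BCL6, the germinal centre repressor, 33 and 220 reads gave -0.31 (-0.92 to 0.19). BACH2 had the lowest ratio, -1.12, but with 4 RelA and 56 p50 reads its interval (-3.34 to 0.02) included 0.

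Of the genes of secreted and surface proteins, RelA was called at 1 of 7 chemokine and receptor genes, 1 of 4 of the TNF superfamily, 1 of 4 of costimulation and adhesion and 1 of 8 cytokine and receptor genes, compared with 4.23% of all identifiers. Both were called at CCR7, a chemokine receptor, with 119 RelA and 444 p50 reads and a ratio of 0.50 (0.19 to 0.79). The chemokine genes CCL5 and CCL17, the latter highly expressed in Hodgkin lymphoma, had 31 and 219 reads and 71 and 600 reads, with ratios of -0.39 and -0.67. Of the TNF superfamily, the region at LTA, the lymphotoxin gene, had the most p50 reads of the regions chosen at the listed genes, 1531. It had 166 RelA reads, no RelA call and a ratio of -0.81 (-1.05 to -0.58). TNFRSF9, which encodes the receptor CD137, was the gene of that list called for both, at -0.38 (-0.95 to 0.09). ICAM1, an adhesion molecule and classical RelA target, was called for both, with 62 and 477 reads and -0.53 (-0.96 to -0.17). Among the cytokine and receptor genes, IL21R was called for both at 0.35 (-0.06 to 0.72), and IL6, IL13, IL2RA, IL4R, CSF1, CSF2 and EBI3 were called for p50 and not RelA, with ratios from -0.89 at IL2RA to -0.02 at IL4R. Of the housekeeping genes, ACTB had a region with p50 as the one subunit called, with 78 RelA and 472 p50 reads and -0.19 (-0.57 to 0.14), and B2M had -0.79 (-1.25 to -0.41).

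**Figure D4:**
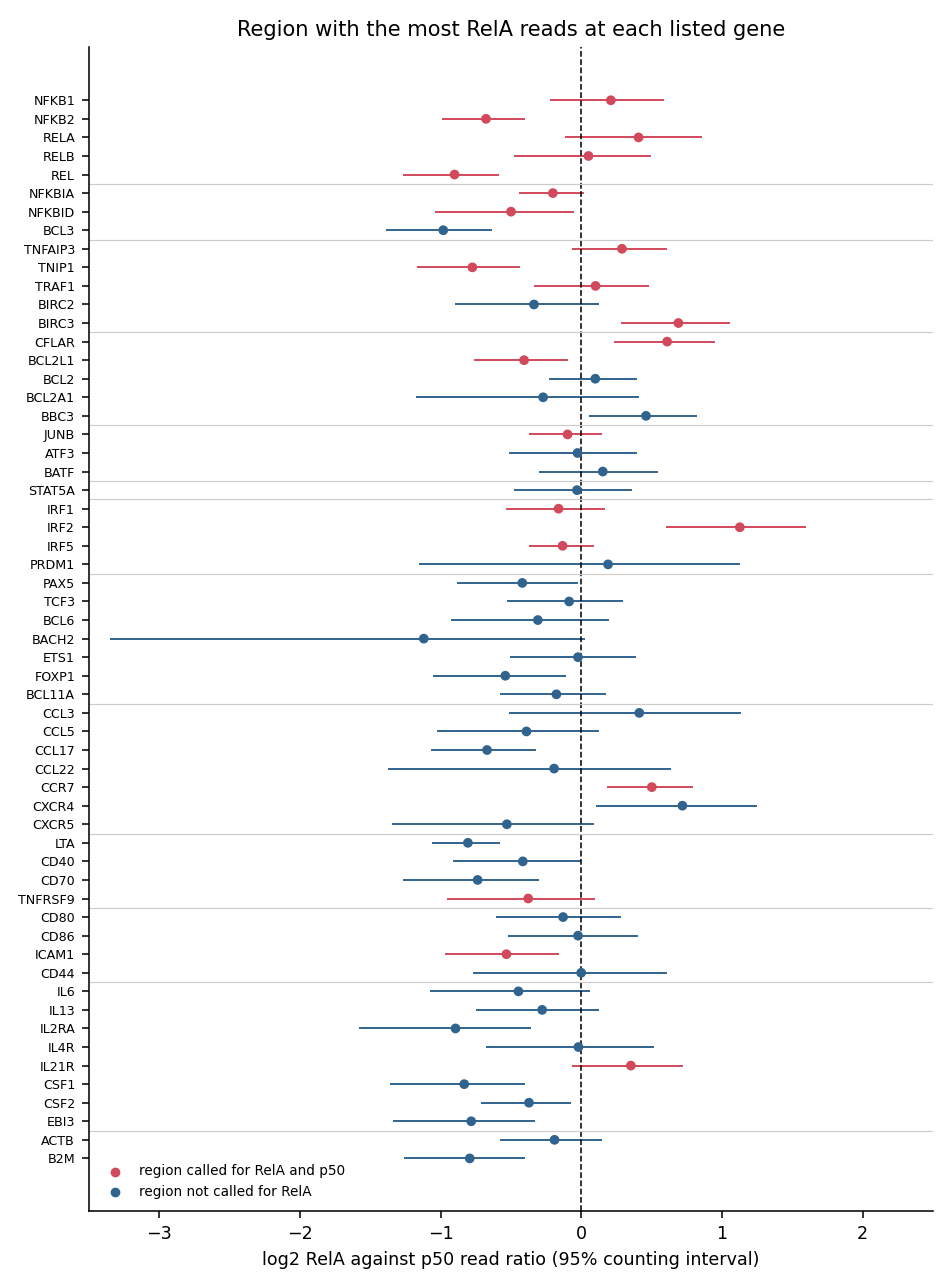
Log2 RelA against p50 read ratio of the region with the most RelA reads at each of the 58 listed genes, with exact 95% counting intervals and grey lines between lists. Red regions were called for RelA and p50, blue ones not for RelA. IRF2 (1.13) lies farthest to the right, and the RelA-called regions have a median of -0.10 against -0.28 for the others.

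The low end of the ratio held p50 peaks with few RelA reads. The 2125 regions at -1 or below had medians of 6 RelA and 109 p50 reads, compared with 14 and 78 over all regions. p50 was called in 96.4% of them and RelA in 6 regions, compared with 73.8% and 3.31% of all regions. The reads behind these calls also make up the ratio, so this contrast is built into the ranking. p52 was called in 73.5%, near the 73.3% over all regions, and 10.4% lay on a start site, compared with 16.5% of all regions. The extreme was chr12:30895359-30896021, with 0 RelA and 100 p50 reads and a p50 fold enrichment of 20.01, whose ratio of RelA to p50 could be up to -2.34 by its interval. In chr2:25435076-25435613 there was 1 RelA read and 160 p50 reads, and in chr11:8362254-8363135 there were 2 and 219, with a p50 fold enrichment of 65.4. The 12 lowest regions with at least 100 reads had 0 to 2 RelA reads and 100 to 219 p50 reads. One of them was on a start site (chr19:58589996-58590906, 2 and 127 reads), and one lay in BEST3, a chloride channel gene (2 and 131 reads). p52 was called in 11 of these 12 and RelB in 1. The 6 regions farthest below the line of RelA on p50 reads were all among these 12.

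Among the regions called for both outside high local background, the lowest ratio was -1.21 (-1.88 to -0.69) in a region 5791 bp from ACP6, a lysophosphatidic acid phosphatase gene, with 27 RelA and 338 p50 reads and summits 14 bp apart. Near IFNGR2, the gene of an interferon-γ receptor chain, it was -0.97 (-1.45 to -0.58) with 50 and 524 reads in a region 18866 bp from its start site. Fold enrichments in the 8 lowest of these regions were 4.87 to 9.52 for RelA and 49.2 to 80.8 for p50.

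The high end had another make-up. Of the 12 highest regions with at least 100 reads, 10 were within 500 kb of high local background and none was called for p50. Outside these surroundings, 1637 regions had a ratio of at least 1, of which 1427 (87.2%) were not called for p50 and 93 were called for RelA. Over all regions p50 was called in 73.8% and RelA in 3.31%. The ranking by the ratio builds in this contrast as well. The 1637 regions were shallow, with a median of 14 RelA and 25 p50 reads, and 3.54% lay on a start site. The highest ratio of any region, 5.92 (4.94 to 7.62), was in chr6:149740700-149741894, which held 80 RelA, 6 p50 and 186 p52 reads and was called for p52 and not for RelA.

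A few regions called for both had a high ratio together with strong peaks. chr8:72918261-72919462, on a start site, had 489 RelA and 544 p50 reads, fold enrichments of 47.4 and 65.01 and summits 10 bp apart, at a ratio of 2.24 (2.06 to 2.42). Its neighbour chr8:72916903-72917934 had 92 and 111 reads and fold enrichments of 19.6 and 23.1. chr2:8738558-8740808 had 257 and 385 reads, fold enrichments of 25.4 and 26.5 and summits 2 bp apart. The first also held 539 p52 and 489 RelB reads. These 3 regions and those of NFKBIA, TNFAIP3 and chr2:208101554-208104426 (109 and 483 reads) were the 6 with the highest RelA fold enrichment outside high local background. All 6 were called for all subunits, as were 349 of the 395 regions called for RelA and p50. In a region 11785 bp from ATP4A, a proton pump gene, 83 RelA, 103 p50, 82 p52 and 83 RelB reads gave 2.08 (1.65 to 2.51), but the fold enrichments were 3.44 and 5.54.

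Of the 492 regions called for RelA, 395 were also called for p50, and p50 was called in 73.8% of all regions. Of the 97 regions called for RelA and not p50, 38 remained outside the surroundings of high local background, with a median ratio of 2.25 and medians of 32.5 RelA and 40 p50 reads. The highest ratio among them, 4.45 (3.24 to 6.40), was in chr1:2738133-2738722 with 24 RelA and 5 p50 reads and a RelA fold enrichment of 7.43. CACNA1C, a calcium channel gene, had one with 26 and 9 reads. The 6 regions with the most RelA reads were all within high local background surroundings, with 239 to 890 RelA and 161 to 560 p50 reads.

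The ratio also differed by the other subunits called in the region. Where p50 alone was called, the median was -0.22 (-0.25 to -0.19) in 3158 regions, and where p50 and p52 were called it was -0.42 (-0.44 to -0.39) in 4732. It was 0.24 (0.10 to 0.33) in the 349 regions with all 4 subunits. Where p52 alone was called it was 0.69 in 2936 regions, and where RelB alone was called it was 2.04 in 570 (1.63 in the 429 outside the surroundings of high local background). Regions not called for p50 have few p50 reads by definition, so no difference in RelA is read from these classes.

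Among p50 regions, a RelB call went with more RelA calls, and the difference in ratio depended on the processing. The median was -0.22 (-0.25 to -0.19) in 3058 regions with RelB and -0.33 (-0.35 to -0.31) in 7917 without it. This difference of 0.11 became -0.040 with a pseudocount of 5 and 0.46 within 5 groups by p50 reads. RelA was called in 12.0% (10.9 to 13.2%) of the first and 0.34% (0.22 to 0.50%) of the second, so that 368 of the 395 regions with RelA and p50 also had RelB. In 5 groups of all regions by p50 reads, the median in the middle group was 0.27 with RelB and -0.23 without, and in the highest group it was -0.50 and -0.57. Regions with RelB were wider, with a median of 1243 bp compared with 864 bp, and the part of width was not tested.

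**Figure D5:**
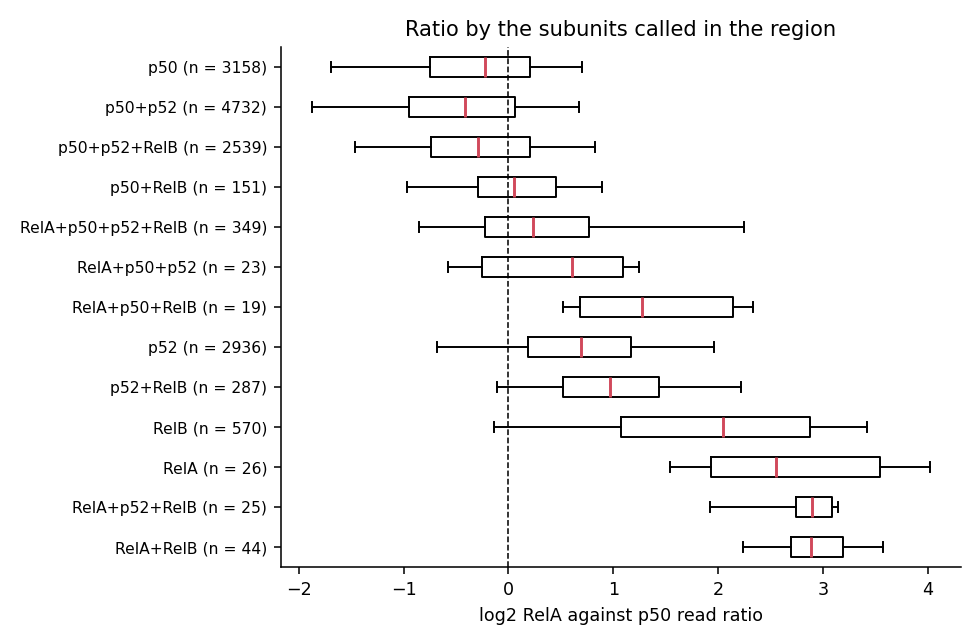
Log2 RelA against p50 read ratio by the combination of subunits called in the region, for combinations with 19 or more regions. Boxes are quartiles with the median in red, whiskers the 5th and 95th percentile, and the dashed line marks 0. The median goes from -0.42 with p50 and p52 to 2.90 with RelA, p52 and RelB and no p50.

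The ratio differed little with the distance to the start of genes, and the direction depended on the processing. The 2989 regions within 1 kb of a start site had a median ratio of -0.11 (-0.13 to -0.08), and the 11876 others -0.05 (-0.07 to -0.03). This difference of -0.06 was 0.10 with at least 50 reads and 0.027 within 5 groups by width. Per kb, regions on a start site had more of both, with medians of 18.7 RelA and 105.3 p50 reads, compared with 14.8 and 86.3 at 10 to 100 kb. RelA was called in 4.74% (3.93 to 5.66%) of the 2447 regions on a start site and in 1.66% (0.76 to 3.13%) of the 542 at up to 1 kb from one. Beyond 100 kb the median ratio was 0.08 (0.02 to 0.13), and it was -0.01 (-0.07 to 0.04) without the surroundings of high local background.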

How the data were processed

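ChIP-seq of RelA and p50 in L1236 cells was analysed from the deposited table of union regions. Per the labels and the study's methods, the authors mapped reads to hg18 with Bowtie, kept uniquely mapping reads, removed duplicates with SAMtools, sampled libraries to one size, called peaks with MACS and merged the replicates. The deposited read counts are whole, unnormalized reads per region from merged replicates. Their place relative to the sampling step is not given in the sources used here. Bowtie, CASAVA, SAMtools and hg18 are named in the submitters' processing notes. The deposited fold enrichment is a ratio, the pileup a coverage signal at the summit, the FDR a q-value, the IDR a fraction, and the signal values a score of unstated scale, taken as 1 per replicate, all by the authors. The highest IDR in the RelA and p50 columns was 0.009998. Genes and distances are the authors', from Ensembl version 54. 

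Of 8450 gene identifiers, 1132 had a name in the study's tables, and 18 genes had a position in its primer list. One listed gene is not reported here. The regions, lists and comparisons were chosen with earlier results of these data known. Named were the 12 highest and 12 lowest ratios and the 6 largest residuals on either side among regions with at least 100 reads of both together, the 10 regions with the most RelA reads, the 6 called for RelA and not p50 with the most RelA reads, the 8 with the most distant summits, and the region with the most RelA reads at each listed gene. Regions of high local background were left out of these ranks. Regions ranked within those called for both or by fold enrichment outside the surroundings of high local background, and chr6:149740700-149741894, were added after their values were seen.

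Medians have exact order-statistic intervals, and shares and ratios exact Clopper-Pearson intervals, at 95%. The intervals and the slope were tested on simulated data. Alternatives were other pseudocounts, scalings, read minimums and filters on background, width, IDR and FDR. The regions held 315151 RelA and 1654137 p50 reads, and precision is set by RelA. These are reads within the regions and not the sequencing depth of the libraries. Calculations used scipy 1.17.1 and pandas 2.3.3 with numpy 2.4.6 in Python 3.11.15, and plots matplotlib 3.10.9.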

Additional observations from a re-analysis of the deposited data

How the results depend on the processing

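No paired analysis was possible because the counts are of merged replicates and the signal values carry no replicate number. For the same reason leaving out a replicate was not run. An IDR below 0.01 removed nothing, since every IDR was already below it. The alternatives without the surroundings of high local background, with an IDR below 0.001 and without scaling were chosen after seeing the data.

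In regions called for both, the median of 0.29 became 0.46 with sums over regions not called for RelA and -2.10 with the reads as deposited. It was -2.21 by pileup, -2.05 by fold enrichment and -3.09 and -3.68 by the 2 signal values. Without scaling 59 regions were past a fold of 2 for RelA and 13784 for p50, since this moves every ratio by -2.39. All ratios from 0 to 2.39 thus turn to the p50 side, among them those of BIRC3 (-1.70), CFLAR (-1.78), IRF2 (-1.27) and chr8:72918261-72919462 (-0.15). Of 92 named regions, 89 stayed within their counting interval with a pseudocount of 5, 91 with sums over regions not called for RelA and all 92 with a pseudocount of 0.5 or centring on the median region. With at least 50 reads the high end held 809 regions, and with a pseudocount of 5 the low end held 714. The other alternatives left both ends within 1.5 times their counts.

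The slope of 0.61 was 0.23 with width in the line, 0.26 per kb, 0.89 in p50 regions, 0.68 with at least 50 reads, 0.90 by Poisson regression, 0.52 with a pseudocount of 5, 0.59 without high local background and 0.60 without its surroundings. It was above 0 in each of these. The median summit distance was 18 bp in regions narrower than the median and with an IDR below 0.001.

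The share called for RelA in the highest of 5 groups by p50 reads, 10.3%, was 8.34% by p50 reads per kb, 4.84% with an IDR below 0.001 and 8.73% without the surroundings of high local background. In the lowest group 0.74% became 0.24% with that IDR.

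The difference in median ratio between regions within 1 kb of a start site and others, -0.06, was -0.084 with a window of 5 kb and -0.17 with a pseudocount of 5, but 0.10 with at least 50 reads and 0.027 within 5 groups by width, so its direction changed with the processing. The difference between p50 regions with and without RelB, 0.11, was 0.46 within 5 groups by p50 reads and -0.040 with a pseudocount of 5. The rank agreement of the RelA signal values was 0.05 in all co-called regions and -0.12 without the surroundings of high local background. The causes were not tested.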
